A study of Homo sapiens with 18 samples.

Results

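CTNNBIP1, LZIC, BSDC1, OSCP1, TIE1, RAB3B, KIAA1522, LUZP1 and RERE are 9 genes whose transcripts changed in opposite directions when Elongin B or Elongin C was depleted in PC3, a human cell line derived from prostate cancer. They are 9 of the 20365 genes measured, and were chosen because both knockdowns passed the test with opposite signs. Their knockdown values are therefore a description. The peptide experiment was not used in choosing them.

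Messenger RNA was sequenced in 18 libraries, 3 from each of 6 groups. The knockdown experiment compared EloB KD and EloC KD cells, which carried lentiviral shRNA against the Elongin B or the Elongin C transcript, with Control KD cells that carried a control vector, all in medium with 10% FCS. In the peptide experiment, cells in 2.5% FCS were exposed for 24 h to 12500 nM of the WT peptide or the mutant peptide, against a scrambled peptide. All groups are of 1 cell line. The labels name neither the hairpins nor the peptide sequences and do not state that a replicate was a culture of its own. The p-values cover only variation among the libraries at hand, which may be technical.

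Elongin B and Elongin C form a small heterodimer. It joins Elongin A in a complex that speeds elongation by RNA polymerase II, and it also serves as an adaptor in cullin-based ubiquitin ligases, where substrate receptors dock on it through a motif called the BC-box. Among the 9 genes are a pair with the ICAT domain, which in CTNNBIP1 binds β-catenin and keeps it from its TCF partners. The others include genes for a secretory GTPase, a receptor kinase, a nuclear corepressor and proteins of the cytoskeleton and cilium.

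Targeted transcripts were low where the labels say so. ELOB averaged 536.5 ± 59.0 normalised read counts in EloB KD cells and 3898 ± 1180 in Control KD cells, and ELOC averaged 515.7 ± 36.6 in EloC KD cells and 4480 ± 355 in Control KD cells (SD, n = 3 each). ELOC was 4502 ± 361 in EloB KD cells, and ELOB was 5255 ± 600 in EloC KD cells. ELOA, which encodes the elongation factor itself, averaged 5632 ± 675 in EloB KD cells, 3949 ± 296 in EloC KD cells and 6557 ± 357 in Control KD cells. With the peptides, the adjusted p of ELOB, ELOC and ELOA was at least 0.642 in each comparison. Libraries held 40.3 to 57.2 M counted reads in the knockdown experiment and 31.7 to 34.7 M in the peptide experiment. Normalised read counts were scaled for depth by the authors, and fold changes below are differences of log2(normalised count + 1) fitted with limma.

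The genes lie on chromosome 1, between RERE at position 8352397 and RAB3B, whose gene ends at 51990764 (GRCh38, GENCODE 29). CTNNBIP1 (9848276 to 9910336) and LZIC (9922113 to 9943407) are next to each other on the minus strand, 11.8 kb apart, and BSDC1 (32365103 to 32394731, minus strand) and KIAA1522 (32741885 to 32774970, plus strand) are 347.2 kb apart. LUZP1 (23084023 to 23177808), OSCP1 (36415827 to 36450451) and TIE1 (43300993 to 43323108) stand alone, at least 3640.9 kb from the next of the 9. No other gene in the table overlaps any of them. Start regions of 7 of the 9 genes were matched in the RefSeq promoter set (GRCh38.p14), which spans 250 bases before to 50 after the start. For KIAA1522 (32765377 to 32765676) and LUZP1 (23168807 to 23169106) the matched region lies well inside the GENCODE gene, away from its annotated start. CTNNBIP1 and LZIC are shown because these neighbouring genes have different start regions and moved together. TIE1 and RAB3B are shown because they differed most in the other direction. Each is written 5′ to 3′ on the gene's strand, with GGGCGG (the GC box) and CCAAT (the CCAAT box) on either strand in capitals.
CTNNBIP1, chr1:9910220-9910519, minus strand: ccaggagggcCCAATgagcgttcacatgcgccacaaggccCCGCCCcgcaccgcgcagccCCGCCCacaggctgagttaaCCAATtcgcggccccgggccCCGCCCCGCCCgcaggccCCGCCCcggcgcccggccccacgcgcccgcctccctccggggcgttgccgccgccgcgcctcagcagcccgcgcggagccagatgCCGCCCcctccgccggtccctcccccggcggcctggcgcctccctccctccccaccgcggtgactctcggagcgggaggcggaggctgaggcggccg
LZIC, chr1:9943342-9943641, minus strand: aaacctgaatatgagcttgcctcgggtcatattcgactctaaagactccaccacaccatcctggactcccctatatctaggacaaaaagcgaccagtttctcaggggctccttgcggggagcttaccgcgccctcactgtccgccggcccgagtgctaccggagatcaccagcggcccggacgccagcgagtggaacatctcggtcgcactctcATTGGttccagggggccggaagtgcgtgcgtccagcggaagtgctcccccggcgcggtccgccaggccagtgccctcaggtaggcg
TIE1, chr1:43300732-43301031, plus strand: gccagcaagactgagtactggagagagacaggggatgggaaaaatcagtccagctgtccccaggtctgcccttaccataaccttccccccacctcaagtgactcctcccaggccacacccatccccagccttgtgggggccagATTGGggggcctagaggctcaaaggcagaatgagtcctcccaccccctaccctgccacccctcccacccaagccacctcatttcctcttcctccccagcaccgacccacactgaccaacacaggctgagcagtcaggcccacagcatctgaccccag
RAB3B, chr1:51990651-51990950, minus strand: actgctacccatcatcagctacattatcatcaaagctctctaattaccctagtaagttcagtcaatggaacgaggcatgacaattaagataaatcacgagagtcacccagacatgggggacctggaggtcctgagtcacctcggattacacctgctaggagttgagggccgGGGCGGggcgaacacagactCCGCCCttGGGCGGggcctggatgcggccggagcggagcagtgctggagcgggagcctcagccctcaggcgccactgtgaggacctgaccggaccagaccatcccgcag

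The start region of CTNNBIP1 has 80.7% G and C, 42 CpG dinucleotides, 6 GC boxes and 2 CCAAT boxes. LZIC's start region has 62.7% G and C, 25 CpG, no GC box and 1 CCAAT box, and it also covers the annotated start of NMNAT1 at position 9943428, on the other strand and 21 bases from that of LZIC. TIE1, the start region poorest in CpG among the 7, has 1 CpG, 61.3% G and C, no GC box and 1 CCAAT box. RAB3B has 58.7% G and C, 15 CpG, 3 GC boxes and no CCAAT box. Over all 35116 RefSeq start regions the median is 58.7% G and C with 14 CpG. A GC box was found in 5 of the 7 regions, those of KIAA1522 and LUZP1 included, against 45% of all 35116. A CCAAT box was found in 4 of the 7, against 34.6%. Neither TATAAA (11.5% of all regions) nor ACGTG (21.4%) was found on either strand in any of the 7. The motifs were chosen after the expression values were known, and a match is not a binding site.

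Levels between genes were compared per kb of annotated exon. In Control KD cells LZIC was highest at 1430 ± 75.6 normalised counts per kb. BSDC1 at 697 ± 13.6, LUZP1 at 679 ± 43.5 and CTNNBIP1 at 640 ± 63.4 came next and lay within 1 SD of their neighbours in that order. KIAA1522 had 525 ± 14.5 and RERE 259 ± 21.2. OSCP1 at 80.7 ± 10.5 and RAB3B at 77.7 ± 4.29 could not be ordered, and TIE1 was lowest at 16.1 ± 4.02 (SD, n = 3 each). In EloC KD cells TIE1 was at 52.9 ± 12.6 per kb and OSCP1 at 55.2 ± 2.52, so that the genes at the low end of the order lay within their spread of each other. In EloC KD cells CTNNBIP1, at 227 ± 10.6 per kb, lay below RERE at 354 ± 28.1, whereas in Control KD cells CTNNBIP1 was the higher of the pair.

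**Figure D1:**
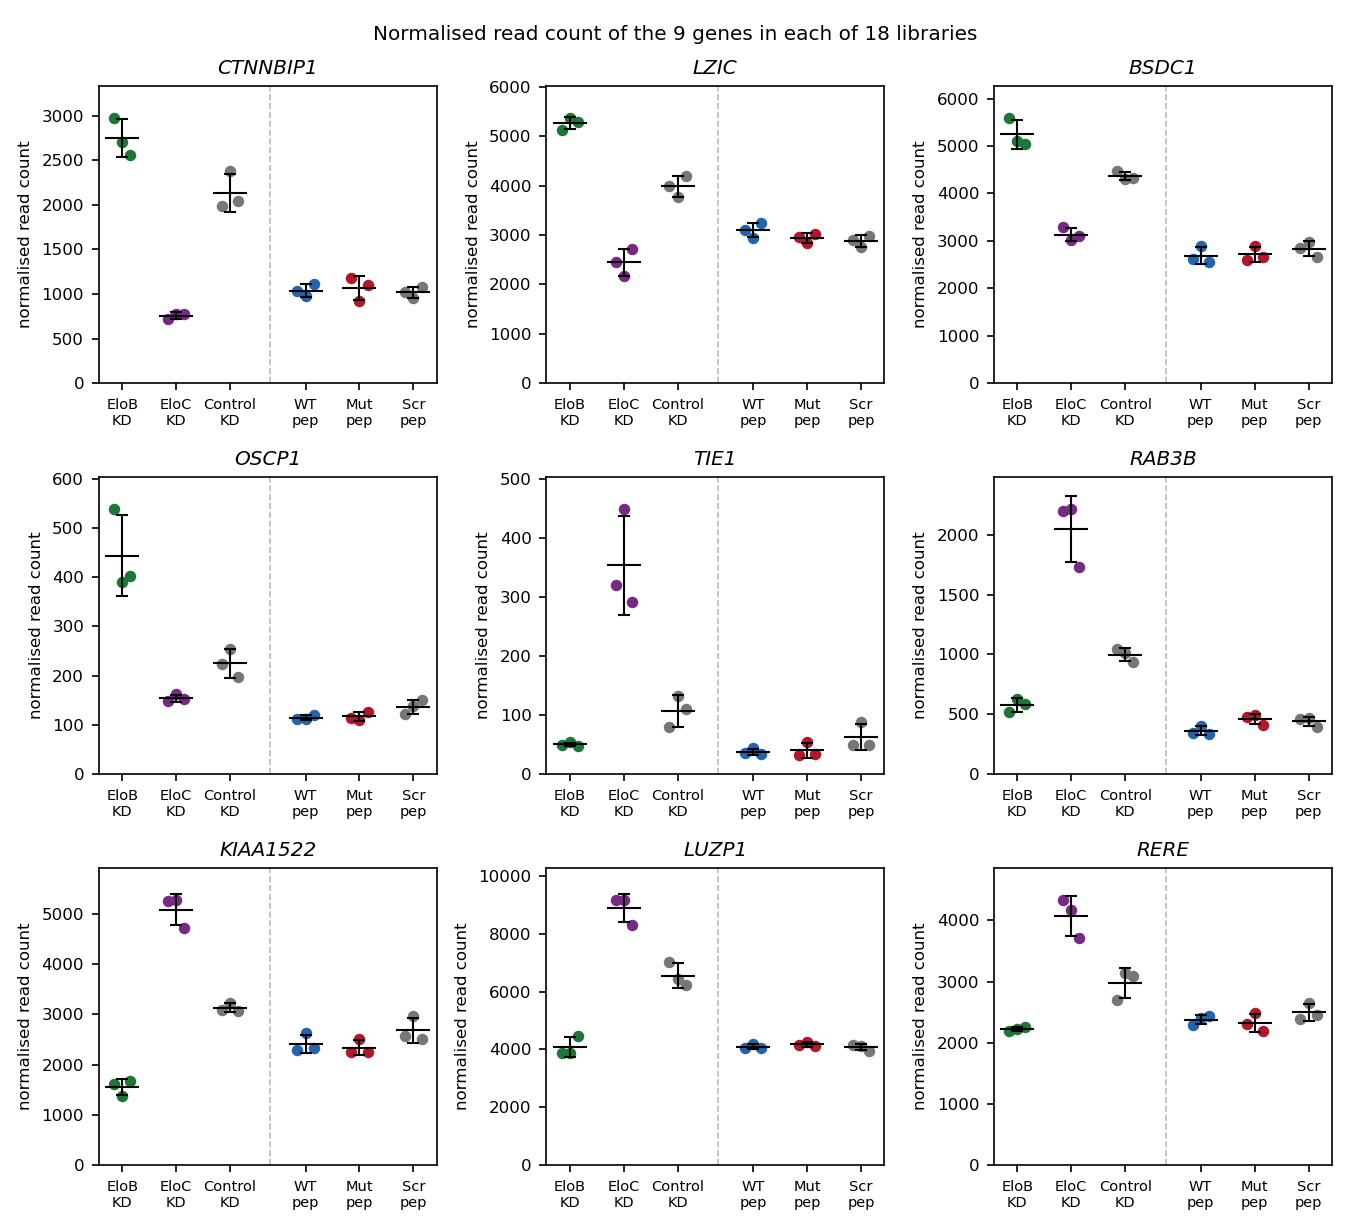
Normalised read count (linear axis from 0) of each of the 9 genes in 18 libraries. Points are libraries, bars the mean and SD of 3; left of the dashed line are EloB KD, EloC KD and Control KD, right of it the WT, mutant (Mut) and scrambled (Scr) peptide. CTNNBIP1, LZIC, BSDC1 and OSCP1 were highest in EloB KD cells and lowest in EloC KD cells, and the other 5 genes were the reverse.

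Of the ICAT-domain genes, CTNNBIP1, which encodes the inhibitor of β-catenin and TCF, had 2979, 2709 and 2559 normalised counts in EloB KD cells, 716.4, 777.1 and 777.8 in EloC KD cells, and 1984, 2379 and 2049 in Control KD cells. All EloB KD libraries lay above the highest control, by a margin smaller than the distance of the EloC KD libraries below the lowest. The log2 fold change was 0.36 ± 0.10 for EloB KD and -1.49 ± 0.10 for EloC KD (SE), and between the knockdowns EloB KD cells had 3.62 times the level of EloC KD cells. LZIC, whose product shares the ICAT domain, had 5131, 5378 and 5294 normalised counts in EloB KD cells, 2448, 2175 and 2720 in EloC KD cells, and 3988, 3774 and 4197 in Control KD cells. Its log2 fold changes were 0.40 ± 0.09 for EloB KD and -0.71 ± 0.09 for EloC KD (SE). For both genes the larger of the differences was that of EloC KD. Their EloB KD calls were lost when some single libraries were left out. Without replicate 1 or 3 of Control KD or 1 or 2 of EloB KD, CTNNBIP1 no longer passed (adjusted p 0.0711 to 0.0967, limma). LZIC no longer passed without replicate 2 of Control KD (0.0561). Leaving out 1 library gave log2 fold changes of 0.306 to 0.444 for CTNNBIP1 and 0.364 to 0.441 for LZIC. In a fit with the replicate number as a block both passed (adjusted p 0.0114 for CTNNBIP1 and 0.00274 for LZIC, limma).

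BSDC1, named for the BSD domain of its product, showed the smallest difference of the 9 in EloB KD cells and the smallest between the knockdowns. It had 5597, 5111 and 5035 normalised counts in EloB KD cells, 3288, 3022 and 3093 in EloC KD cells, and 4470, 4312 and 4337 in Control KD cells. The log2 fold change was 0.26 ± 0.08 for EloB KD and -0.48 ± 0.08 for EloC KD (SE), and no libraries of different groups overlapped. OSCP1, whose name stands for organic solute carrier partner, had 538.6, 389.0 and 402.4 normalised counts in EloB KD cells, 148.4, 161.9 and 151.6 in EloC KD cells, and 224.2, 254.7 and 196.0 in Control KD cells. Unlike CTNNBIP1, LZIC and BSDC1, its larger difference was that of EloB KD, at 0.97 ± 0.17 against -0.54 ± 0.17 for EloC KD (log2, SE). Without any 1 library of EloB KD or Control KD, BSDC1 no longer passed for EloB KD (adjusted p 0.0618 to 0.111, limma). OSCP1 no longer passed for EloC KD without replicate 1 or 2 of Control KD or replicate 1 or 3 of EloC KD (0.0536 to 0.0901).

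TIE1 encodes a receptor tyrosine kinase that modulates angiopoietin signalling through TEK and is best known from endothelium. It had 48.5, 53.8 and 48.3 normalised counts in EloB KD cells, 320.6, 450.2 and 291.6 in EloC KD cells, and 79.1, 132.6 and 110.8 in Control KD cells. EloB KD libraries were close together and below every control, and the lowest EloC KD library had more than the highest control. Log2 fold changes were -1.05 ± 0.23 for EloB KD and 1.72 ± 0.23 for EloC KD (SE), and EloB KD cells had 6.82-fold less than EloC KD cells, the widest gap among the 9 genes. RAB3B, a Rab GTPase of regulated exocytosis, had 516.2, 629.1 and 587.1 normalised counts in EloB KD cells, 2203, 2219 and 1734 in EloC KD cells, and 1046, 1009 and 937.5 in Control KD cells. Its log2 fold changes were -0.79 ± 0.13 for EloB KD and 1.03 ± 0.13 for EloC KD (SE).

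KIAA1522, also called NHSL3 and a relative of the Nance-Horan syndrome protein NHS, had 1619, 1381 and 1683 normalised counts in EloB KD cells, 5257, 5283 and 4728 in EloC KD cells, and 3089, 3233 and 3078 in Control KD cells. Its log2 fold changes were -1.01 ± 0.10 for EloB KD and 0.70 ± 0.10 for EloC KD (SE). LUZP1, a leucine zipper protein of actin filaments and the centrosome that restrains the primary cilium, had 3886, 3860 and 4471 normalised counts in EloB KD cells, 9176, 9169 and 8315 in EloC KD cells, and 7026, 6425 and 6216 in Control KD cells. The log2 fold change was -0.69 ± 0.09 for EloB KD and 0.44 ± 0.09 for EloC KD (SE), so that for KIAA1522 and LUZP1 the larger difference was that of EloB KD. RERE, an atrophin-family corepressor of nuclear receptors, had 2185, 2226 and 2261 normalised counts in EloB KD cells, 4338, 4177 and 3714 in EloC KD cells, and 2699, 3141 and 3100 in Control KD cells. Its differences were nearly equal in size, at -0.42 ± 0.09 for EloB KD and 0.45 ± 0.09 for EloC KD (log2, SE).

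Of the 9 genes, 4 were higher and 5 lower in EloB KD cells, where 20.5% of the 13764 genes tested were called (adjusted p under 0.05, Benjamini-Hochberg), 9.34% as higher and 11.2% as lower. In EloC KD cells 5 were higher and 4 lower, where 42.5% of all genes were called, 21.3% as higher and 21.2% as lower. Between the knockdowns all 9 were called, against 46.1% of all genes. The groups did not overlap for any of the 9 genes in any of these comparisons, which held for 38.4%, 53.7% and 56.3% of all genes for EloB KD, EloC KD and EloB KD against EloC KD. These counts follow from how the genes were chosen. Both knockdowns were set against the same Control KD libraries, so that a high or low control level enters both fold changes.

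The same rule was met by 371 genes, 2.7% of those tested, but the number depends on the fit. It was 938 (6.81%) with the replicate number as a block, 230, 198 and 222 without replicate 1, 2 or 3 of Control KD, and 241 without replicate 2 of EloB KD, so the shares and ranks below describe the fit with all 9 libraries and no block. The 371 comprise 157 genes higher in EloB KD and lower in EloC KD cells and 214 the reverse. A further 1082 genes (7.86%) were called in both knockdowns in 1 direction. The 371 lie on 23 chromosomes, and 42 are on chromosome 1, or 2.98% of the 1410 genes tested there. The 9 are among the first 13 of the 371 in the order of the deposited table, which follows the chromosomes, and the other 4 in that stretch are EPHB2, FUCA1, GPN2 and IPO13. Up to that row 2.64% of the genes tested met the rule. Being on chromosome 1 therefore goes with the order of the table. With the smaller of a gene's absolute log2 fold changes as the measure, their median was 0.439, against 0.467 for all 371, and TIE1 ranked 20, RAB3B 51 and KIAA1522 76, while BSDC1 ranked 361. These 3 leading genes changed at least 1.5-fold in both knockdowns, as did 119 of the 371. By the larger adjusted p of the comparisons, BSDC1 (0.0386), CTNNBIP1 (0.0303) and OSCP1 (0.0242) were nearest inside the threshold of 0.05. ZNF317 (0.0506), MAVS (0.0506) and RDX (0.0508) were the nearest outside it.

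**Figure D2:**
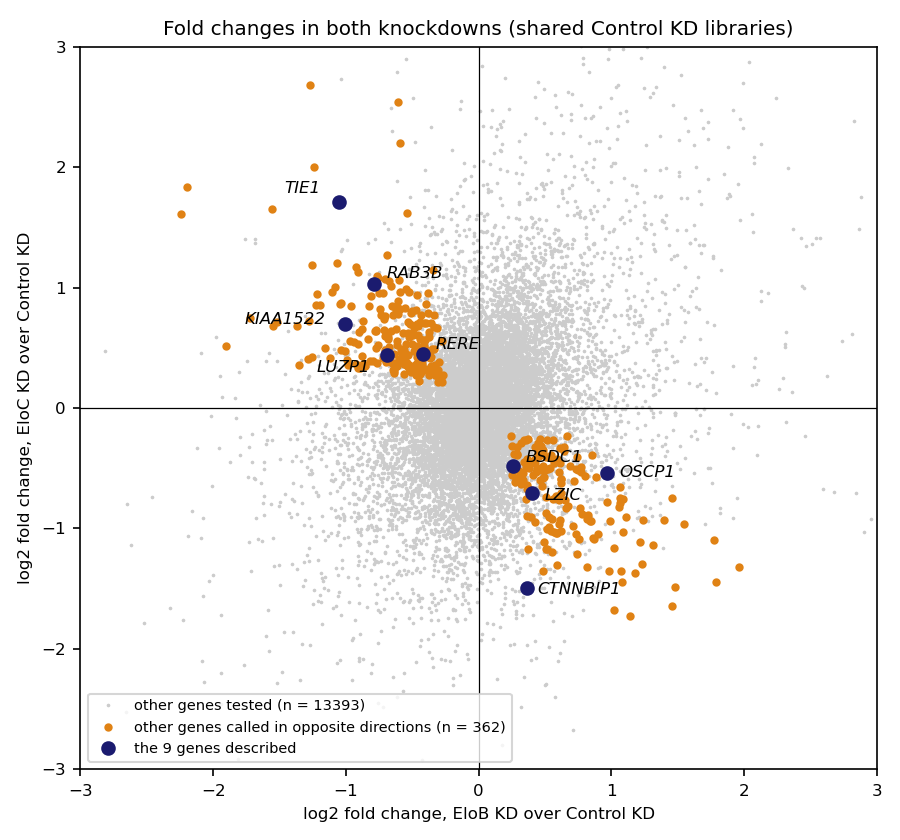
Log2 fold change of each gene tested in EloB KD (x axis) and EloC KD (y axis), each over the same Control KD libraries. Grey points are other genes, orange points the other 362 genes called in opposite directions, and dark blue points the 9 genes; 78 genes lie beyond the axis limit of 3. TIE1 and CTNNBIP1 stand farthest from the origin among the 9, and BSDC1 lies nearest to it.

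The peptide experiment measured the same genes in libraries that played no part in choosing them. None of the 9 was called with the WT peptide against the scrambled peptide, where limma called 188 of 13105 genes (1.43%). With the mutant peptide against the scrambled peptide, and with the WT against the mutant peptide, limma called no gene at all (0% of 13105). At an unadjusted p under 0.05, 1142 genes (8.71%) and 898 genes (6.85%) passed in these 2 comparisons. DESeq2 called 184 and 63 genes and edgeR called 0 in both. For the WT against the scrambled peptide DESeq2 called 582 genes and edgeR 198. Each of these tools called 0 of the 9 genes in all 3 comparisons. At the same unadjusted threshold 2 of the 9 genes passed for the WT peptide, where 13.4% of all genes did, and 1 passed in each of the others. Groups did not overlap for TIE1 and OSCP1 with the WT against the scrambled peptide, as for 19.7% of all genes, and for RAB3B with the WT against the mutant peptide, as for 12.1%.

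Libraries with the same replicate number deviated together in this experiment, and a fit with the number as a block called more genes. In that fit 4 of the 9 genes were called for the WT against the scrambled peptide, where 2122 genes (16.2%) were called in all. KIAA1522 is 1 of 1088 genes (8.30%) called for the mutant against the scrambled peptide, and RAB3B is 1 of 536 (4.09%) called for the WT against the mutant peptide. The blocked values stand beside each of these genes below.

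RAB3B had 345.0, 404.7 and 338.2 normalised counts with the WT peptide, 481.1, 489.7 and 408.3 with the mutant peptide, and 456.1, 468.7 and 395.9 with the scrambled peptide. Every WT library was lower than the same-numbered library of either other group, and the WT and mutant groups did not overlap. Against the scrambled peptide the log2 fold change with the WT peptide was -0.28 ± 0.11 (SE), with a 95% interval of -0.52 to -0.04 and an adjusted p of 0.291 (limma), or 0.0130 with the replicate block. Against the mutant peptide it was -0.34 ± 0.11 (SE), with an interval of -0.58 to -0.10 and an adjusted p of 0.586, or 0.0138 with the block. For the mutant against the scrambled peptide it was 0.06 ± 0.11 (interval -0.18 to 0.30), with an adjusted p of 0.949, or 0.653 with the block.

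TIE1 had 36.2, 43.7 and 33.6 normalised counts with the WT peptide, 32.6, 54.8 and 33.9 with the mutant peptide, and 50.01, 87.6 and 49.2 with the scrambled peptide. Replicate 2 was the highest library in each of the 3 groups, and the WT libraries lay below all scrambled ones. The log2 fold change with the WT peptide was -0.66 ± 0.28 (SE, interval -1.29 to -0.03), with an adjusted p of 0.345, or 0.0211 with the block. For the mutant peptide it was -0.60 ± 0.28 (interval -1.22 to 0.03), with an adjusted p of 0.599, or 0.0534 with the block. WT and mutant peptide differed by -0.06 ± 0.28 (interval -0.69 to 0.56, adjusted p 0.996). Without replicate 2 of all 3 groups, a step added after seeing the data, the WT peptide difference was -0.50, with an adjusted p of 0.295.

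KIAA1522 had 2297, 2626 and 2339 normalised counts with the WT peptide, 2261, 2506 and 2246 with the mutant peptide, and 2580, 2972 and 2503 with the scrambled peptide. Each scrambled library was higher than the same-numbered library of either other group, although the groups overlapped. Its log2 fold change was -0.15 ± 0.08 with the WT peptide (SE, interval -0.33 to 0.03), with an adjusted p of 0.474, or 0.0113 with the block. The mutant peptide gave -0.20 ± 0.08 (interval -0.38 to -0.02), with an adjusted p of 0.507, or 0.00327 with the block. LZIC had 3110, 2946 and 3241 normalised counts with the WT peptide, 2960, 2829 and 3030 with the mutant peptide, and 2901, 2750 and 2978 with the scrambled peptide. Within each number the order was WT, mutant, scrambled. The log2 fold change was 0.11 ± 0.05 with the WT peptide (SE, interval -0.0078 to 0.22), with an adjusted p of 0.417, or 0.0356 with the block.

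OSCP1, CTNNBIP1, LUZP1, RERE and BSDC1 were called in no peptide comparison, with or without the block. OSCP1 had 111.4, 111.8 and 120.2 normalised counts with the WT peptide, 114.2, 109.7 and 126.7 with the mutant peptide, and 122.0, 137.9 and 149.7 with the scrambled peptide. Its WT libraries lay below all scrambled ones, with a log2 fold change of -0.25 ± 0.12 (SE, interval -0.51 to 0.02), an adjusted p of 0.416, and 0.149 with the block. CTNNBIP1 averaged 1039 ± 68.4 normalised counts with the WT peptide, 1068 ± 137 with the mutant peptide and 1019 ± 62.1 with the scrambled peptide (SD, n = 3 each). Its WT difference from the scrambled peptide was 0.03 ± 0.10 on the log2 scale (SE), with an interval of -0.19 to 0.24. LUZP1 averaged 4097 ± 77.6 with the WT peptide, 4173 ± 87.6 with the mutant peptide and 4079 ± 103 with the scrambled peptide. Its interval for the WT peptide, -0.08 to 0.09, was the narrowest of the 9. RERE averaged 2380 ± 80.8, 2328 ± 148 and 2496 ± 132 with the WT, mutant and scrambled peptide, and BSDC1 2689 ± 182, 2717 ± 154 and 2832 ± 157 in the same order. The intervals of their WT differences were -0.20 to 0.07 for RERE and -0.22 to 0.07 for BSDC1.

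The direction of the WT peptide difference was that of EloB KD for 6 of the 9 genes, against 47.0% of the 13074 genes tested in both experiments and 45.9% of 366 measured genes of the opposite class. For the mutant peptide it was 5 of 9, against 45.2% and 58.5%. Some of these signs turned when 1 library was left out, so the counts are not firm. They were those of CTNNBIP1 and LUZP1 for the WT peptide, and of CTNNBIP1, LZIC and RAB3B for the mutant peptide. The 4 genes called with the block for the WT peptide, LZIC higher and KIAA1522, TIE1 and RAB3B lower, had the direction of EloB KD. OSCP1, BSDC1 and LUZP1 did not. How many of all genes called with the block had that direction was not counted. KIAA1522 and TIE1 were also lower with the mutant peptide (log2 -0.20 and -0.60), where LZIC was at 0.03 and RAB3B at 0.06. No p is attached to these counts, since the genes are few and were not chosen at random. The experiments differ in serum and in treatment, shRNA or peptide, and the labels give a duration for the peptides only. Directions in both experiments are set side by side here, and no difference between their fold changes was tested.

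**Figure D3:**
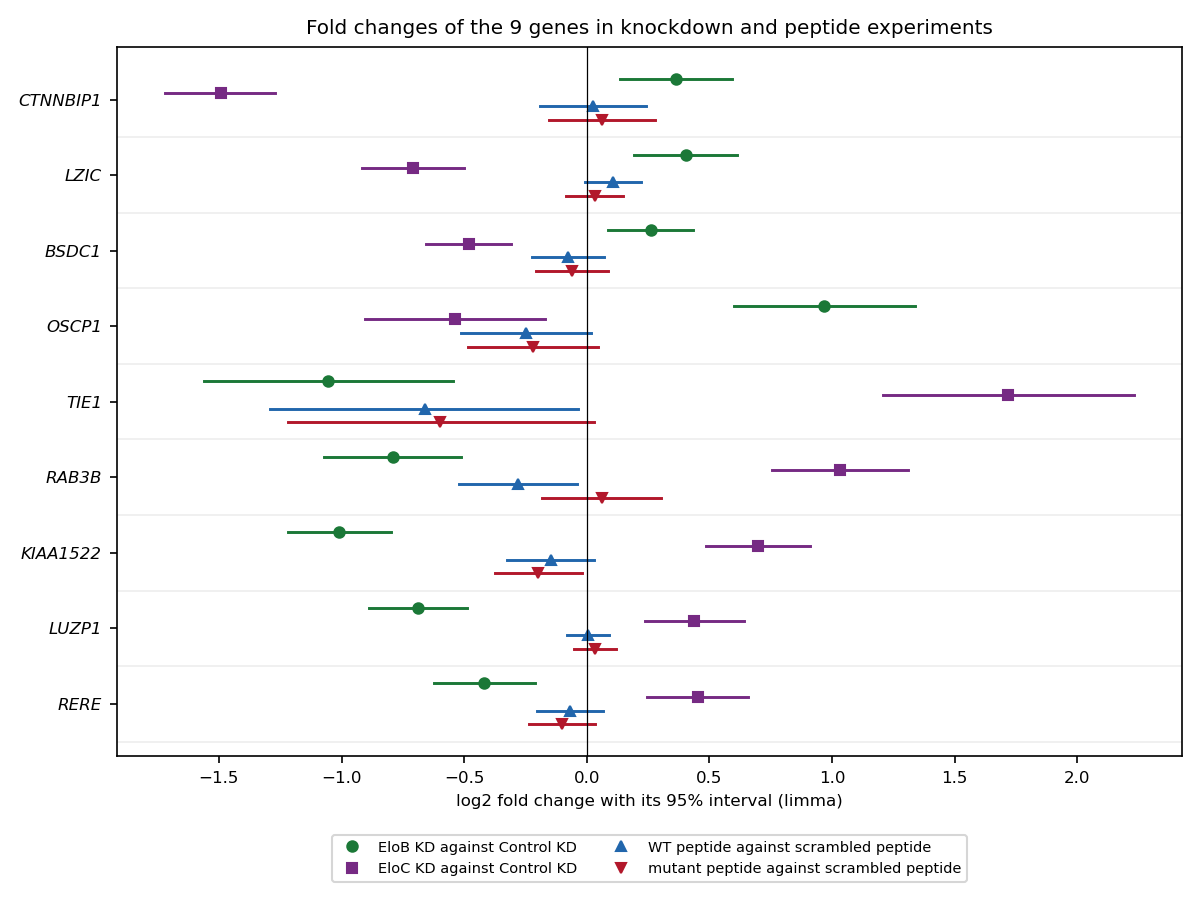
Log2 fold change (x axis) of each of the 9 genes, with its 95% interval from limma, for EloB KD and EloC KD over Control KD and for the WT and mutant peptide over the scrambled peptide. For every gene the EloB KD and EloC KD intervals lie on opposite sides of 0. Those of the WT peptide cover 0 for all genes but TIE1 and RAB3B, and those of the mutant peptide for all but KIAA1522.

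The nearest protein-coding genes, 2 on each side of each of the 9, came to 32 genes that were not chosen by their values. In the knockdown experiment 27 of these were measured, and none was called in opposite directions; with the replicate block SLC45A1 was. In EloB KD cells 1 was higher and 4 lower (18.5%, against 20.5% of all genes), and in EloC KD cells 4 were higher and 6 lower (37.0%, against 42.5%). With the block 16 neighbours were called in EloC KD cells (59.3%, against 57% of all genes). Of the 31 measured pairs of a gene and its neighbour, the neighbour was called in the same direction in 4 pairs for EloB KD and in 7 pairs for EloC KD. It was called in the other direction in 2 and 6 pairs. CTNNBIP1 and LZIC have the same neighbours, CLSTN1, PIK3CD, NMNAT1 and RBP7, and each of these was counted once for either gene. For EloC KD this repeats NMNAT1 and RBP7 among the pairs of the same direction and PIK3CD among those of the other direction. For EloB KD it repeats CLSTN1 among the pairs of the other direction.

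NMNAT1, which encodes a nuclear enzyme of NAD synthesis and starts 21 bases from LZIC, averaged 1801 ± 109 normalised counts in EloB KD cells, 1316 ± 59.1 in EloC KD cells and 1993 ± 223 in Control KD cells. It fell with LZIC and CTNNBIP1 in EloC KD cells (log2 -0.59 ± 0.10 SE, adjusted p 0.00117, limma), but in EloB KD cells its value was -0.14 ± 0.10 (adjusted p 0.362), where LZIC was higher. RBP7, beyond NMNAT1, fell in EloC KD cells (log2 -1.01, adjusted p 0.0226), PIK3CD on the other side of CTNNBIP1 rose (1.05, adjusted p 0.000707), and CLSTN1 between them fell in EloB KD cells (-0.32, adjusted p 0.0157). Around RERE, ERRFI1 fell in both knockdowns, at -0.98 in EloB KD and -0.79 in EloC KD cells (adjusted p 0.000511 and 0.000551). SLC45A1 fell in EloB KD cells (-1.09, adjusted p 0.00372), and in EloC KD cells it was at 0.49 with an adjusted p of 0.0690, or 0.0469 with the block. YARS1, the tyrosyl-tRNA synthetase gene beside KIAA1522, fell in EloB KD cells as KIAA1522 did (-0.86, adjusted p 0.000144) and also in EloC KD cells (-0.29, adjusted p 0.0156). RBBP4, on the other side of KIAA1522, fell in EloC KD cells (-0.27, adjusted p 0.0111).

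HTR1D, a serotonin receptor gene 16.9 kb from the start of LUZP1, had the largest difference of the neighbours, with 115.7 ± 56.8 normalised counts in EloC KD cells, 13.9 ± 5.42 in EloB KD cells and 9.85 ± 4.0 in Control KD cells. Beside OSCP1, STK40 rose in EloB KD cells (0.71, adjusted p 0.00378) and LSM10 in EloC KD cells (0.61, adjusted p 0.00347). OSBPL9 near RAB3B rose in EloC KD cells (0.48, adjusted p 0.00395), and ZBTB8B near BSDC1 fell there (-0.91, adjusted p 0.00675). In the peptide experiment 24 neighbours were measured. With the replicate block 7 were called for the WT against the scrambled peptide (29.2%, against 16.2% of all genes), 4 for the mutant against the scrambled peptide (16.7%, against 8.30%) and 3 of the 24 between WT and mutant peptide (against 4.09% of all genes). Without the block 1 was called (4.17%, against 1.43%), CDC20 near TIE1, a mitotic activator of the anaphase-promoting complex. It averaged 5920 ± 99.6 with the WT peptide and 4227 ± 220 with the scrambled peptide (log2 0.49 ± 0.06 SE, adjusted p 0.00365), whereas TIE1 was lower there.

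**Figure D4:**
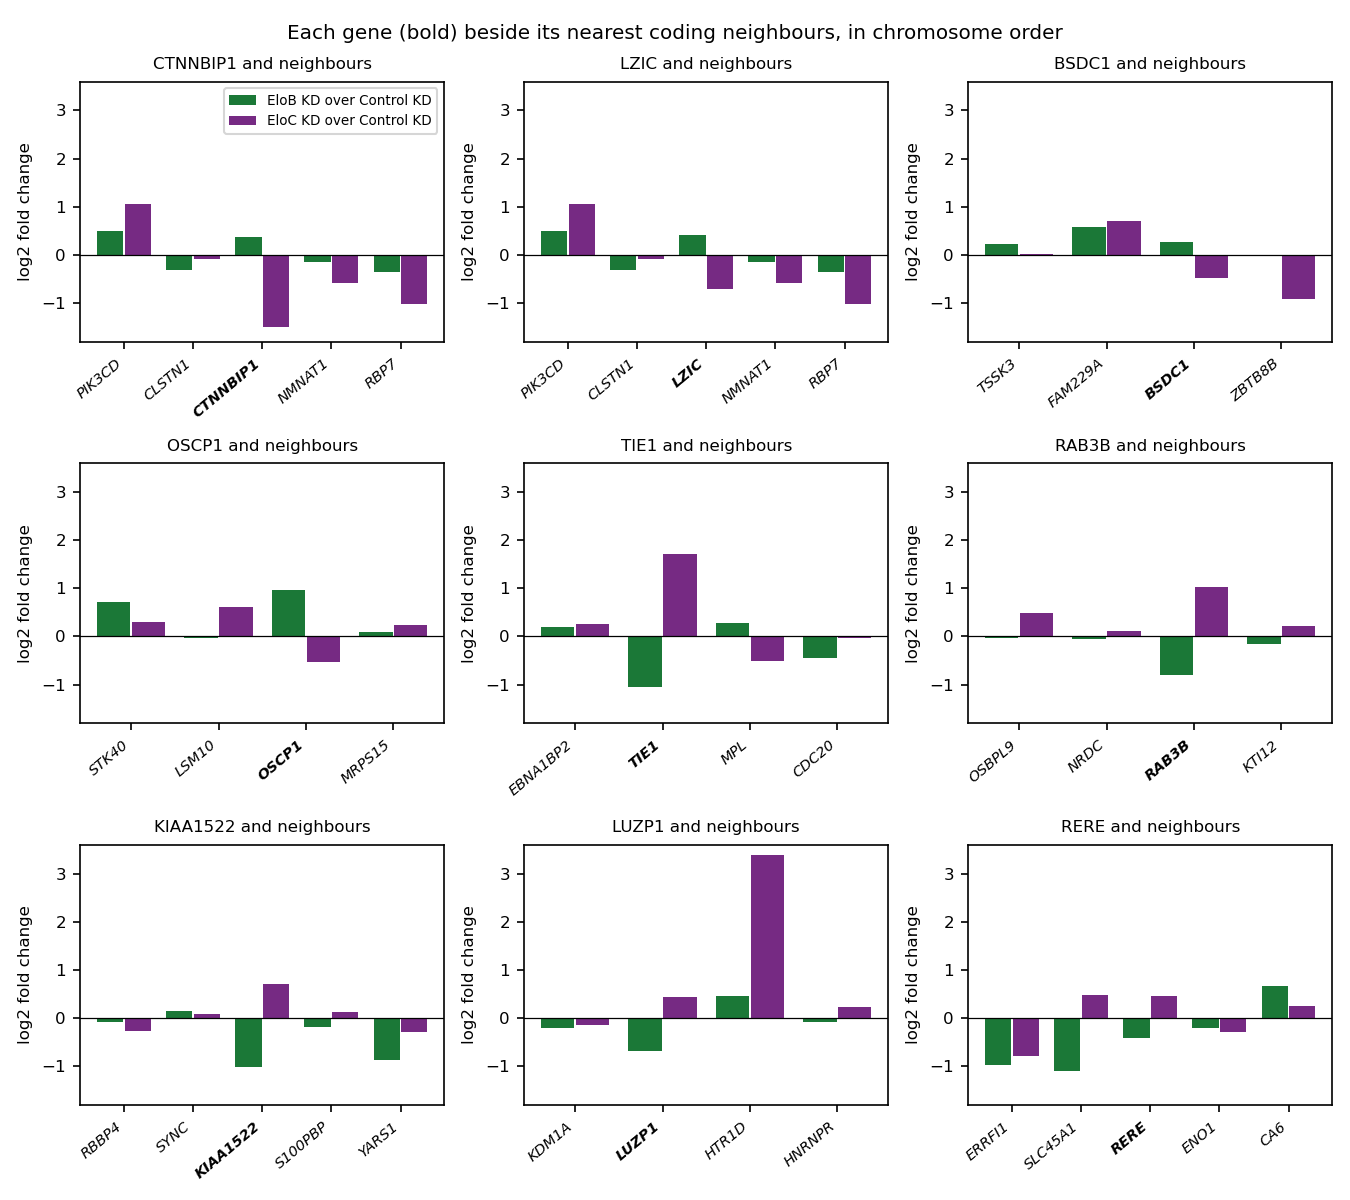
Log2 fold change over Control KD (y axis, same range in each panel) in EloB KD (green) and EloC KD (purple) cells of each of the 9 genes, in bold, beside up to 2 measured protein-coding neighbours on each side in chromosome order, spaced evenly and with the other 8 genes left out. No neighbour was called in opposite directions in the fit without the replicate block; among neighbours, HTR1D beside LUZP1 and SLC45A1 beside RERE have the tallest bars.

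Lists drawn from the roles of the 9 genes were counted in the same fit. Of 27 genes of β-catenin signal transduction, the pathway on which CTNNBIP1 acts, 1 rose and 4 fell in EloB KD cells, and 10 rose and 3 fell in EloC KD cells. These are 18.5% and 48.1% of the list, close to the 20.5% and 42.5% of all genes called there. The median log2 fold change was -0.11 and 0.16, against 0.0035 and 0.0068 for all genes. Of 15 measured Wnt target genes, 2 rose and 2 fell in EloB KD cells, and 8 rose and 2 fell in EloC KD cells, with medians of 0.11 and 0.49. The shares called were 26.7% and 66.7%, against 20.5% and 42.5% of all genes. AXIN2, a feedback inhibitor that is on both lists, averaged 300.7 ± 33.8 normalised counts in EloB KD cells, 552.7 ± 24.9 in EloC KD cells and 151.6 ± 31.5 in Control KD cells. It rose in both knockdowns (log2 0.997 ± 0.17 and 1.88 ± 0.17 SE, adjusted p 0.00236 and 2.93e-05), whereas CTNNBIP1 was higher in EloB KD and lower in EloC KD cells. RNF43, a ligase that removes Wnt receptors, likewise rose in both, by 0.67 ± 0.17 in EloB KD and 1.60 ± 0.17 in EloC KD cells (adjusted p 0.0173 and 6.01e-05). BAMBI, a pseudoreceptor of the TGF-β family, rose in EloC KD cells (1.69 ± 0.14, adjusted p 1.85e-05), and was at 0.17 ± 0.14 in EloB KD cells (adjusted p 0.397). DVL3, a Dishevelled protein, rose in EloC KD cells (0.78 ± 0.08, adjusted p 7.96e-05), and TBL1X, part of a corepressor exchange complex, fell in both knockdowns (-0.30 ± 0.09 and -0.74 ± 0.09, adjusted p 0.0441 and 0.000202). CCND1, DKK1 and CSNK1A1 of these lists were themselves lower in EloB KD and higher in EloC KD cells, by -0.66 and 0.64, -0.68 and 0.59, and -0.47 and 0.27. Without the replicate block no gene of either list was called with the peptides. With it, 2, 2 and 1 of the 27 signal transduction genes and 4, 2 and 2 of the 15 targets were called for WT against scrambled, mutant against scrambled and WT against mutant peptide, where 16.2%, 8.30% and 4.09% of all genes were.

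The 25 measured genes of RAB3 and RAB27 exocytosis held 4 that rose and 4 that fell in EloB KD cells, and 5 that rose and 7 that fell in EloC KD cells (32% and 48%, against 20.5% and 42.5% of all genes). Close relatives of RAB3B moved otherwise than RAB3B. RAB3D fell in both, to 3447 ± 239 normalised counts in EloB KD cells and 3001 ± 174 in EloC KD cells, against 5234 ± 610 in Control KD cells (adjusted p 0.00293 and 0.000220). RAB3A fell in EloC KD cells to 604.6 ± 50.4, against 1115 ± 161 in Control KD cells (adjusted p 0.00124), and was at 1096 ± 199 in EloB KD cells. RAB3IL1, an exchange factor of this family, rose in EloC KD cells to 922.0 ± 113, against 316.0 ± 72.1 in Control KD cells (adjusted p 0.000111).

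Among 7 measured genes of TIE receptors and angiopoietins, 2 rose and 1 fell in EloB KD cells, and 2 rose and 3 fell in EloC KD cells (42.9% and 71.4%, against 20.5% and 42.5% of all genes). With the replicate block 5 were called in EloB KD cells, where 36.3% of all genes were. ANGPT1, the ligand of TEK, rose in both knockdowns, to 287.0 ± 46.0 normalised counts in EloB KD cells and 261.3 ± 5.22 in EloC KD cells, against 147.5 ± 26.8 in Control KD cells (adjusted p 0.00396 and 0.00337). PTPRB, a phosphatase of TEK, rose with TIE1 in EloC KD cells to 460.9 ± 126, against 129.4 ± 23.8 in Control KD cells (adjusted p 0.000140), and stood at 137.0 ± 14.6 in EloB KD cells. ANGPTL2, an angiopoietin-like protein, fell in EloC KD cells to 62.4 ± 6.33, against 427.3 ± 176 in Control KD cells (adjusted p 5.55e-05). In EloB KD cells its log2 difference was 0.72, with an adjusted p of 0.0876, or 0.0200 with the block.

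As TIE1 is usually read as an endothelial gene, 14 endothelial markers were examined. SOX17 was at 0 in every group, and CDH5, VWF, ERG and EMCN were at or below a mean of 15.3 normalised counts in every knockdown group. PECAM1 (2140 ± 113, 1320 ± 92.0 and 1630 ± 308), KDR (1110 ± 496, 1790 ± 543 and 2610 ± 1070) and ROBO4 (1310 ± 258, 1070 ± 113 and 1390 ± 373) were well measured in EloB KD, EloC KD and Control KD cells. The summed level of all 14 markers was 4704 to 5384 in EloB KD, 4111 to 5114 in EloC KD and 5197 to 7025 in Control KD libraries. This sum was mostly PECAM1, KDR and ROBO4, and was not highest in EloC KD cells as TIE1 was. TEK had a higher mean in both knockdowns than in Control KD cells, and ESAM was the reverse of TIE1. Of the 14 markers only EMCN and EGFL7, at low levels, had the order of TIE1. In EloB KD, Control KD and EloC KD cells EMCN was at 0.32 ± 0.555, 0.812 ± 1.41 and 5.15 ± 2.65. EGFL7 was at 18.2 ± 6.06, 24.1 ± 15.6 and 30.5 ± 18.2. Of the 7 measured markers, 0 rose and 1 fell in EloB KD cells, and none was called in EloC KD cells by limma, or 3 and 4 with the replicate block (36.3% and 57% of all genes). Epithelial markers summed to 26820 to 30660 in EloB KD, 21230 to 25870 in EloC KD and 30580 to 39550 in Control KD libraries, and in EloC KD cells 5 of the 7 were called as lower and 1 as higher. Fibroblast markers summed to 903.8 to 1424, 2965 to 3681 and 944.0 to 1308 in the same order, and of 6 measured in EloC KD cells 3 rose and 2 fell. COL1A1 made up most of the sum, at 2260 ± 295 in EloC KD cells and 570 ± 86.0 in Control KD cells. PDGFRA, at 783 ± 304 against 320 ± 98.9 in Control KD cells, also had a higher mean in EloC KD cells. So did LUM (40.8 ± 3.4 against 11.3 ± 4.2) and DCN (13.9 ± 3.69 against 0.72 ± 0.638), at low levels. The rest of that list had lower means in EloC KD cells than in Control KD cells. COL1A2 was at 91.0 ± 6.02 against 152 ± 39.8, COL3A1 at 58.3 ± 8.55 against 76.1 ± 5.85 and PDGFRB at 20.3 ± 1.88 against 45.4 ± 11.8. Of the leukocyte markers, CD68 averaged 2380 ± 326 in EloB KD, 2730 ± 335 in EloC KD and 2540 ± 237 in Control KD cells. The part of these markers in the differences of the 9 genes was not tested.

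In the list of the NHS family and the WAVE complex, 14 genes were measured, of which 2 rose and 1 fell in EloB KD cells, and 3 rose and 5 fell in EloC KD cells. The shares called were 21.4% and 57.1%, against 20.5% and 42.5% of all genes, and with the replicate block 5 were called in EloB KD cells (35.7%, against 36.3%). NHS, a relative of KIAA1522, fell in EloB KD cells to 395.3 ± 48.0 normalised counts, against 903.5 ± 191 in Control KD cells (adjusted p 0.00154), and was at 700.5 ± 125 in EloC KD cells (adjusted p 0.128, or 0.0309 with the block). NHSL1, also of that family, fell in EloC KD cells to 319.2 ± 55.2, against 539.3 ± 16.5 in Control KD cells (adjusted p 0.00221), where KIAA1522 was higher. NCKAP1L, the WAVE subunit of blood cells, was higher in both knockdowns at a low level, with 17.3 ± 6.42 and 23.3 ± 5.56, against 6.21 ± 1.98 in Control KD cells (adjusted p 0.0260 and 0.00291).

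RERE partners and related corepressors with ELM2 and SANT domains came to 21 measured genes, of which 0 rose and 6 fell in EloB KD cells, and 3 rose and 6 fell in EloC KD cells (28.6% and 42.9%, against 20.5% and 42.5% of all genes). NR2F1, an orphan nuclear receptor of the COUP-TF class, fell in both, to 8527 ± 2300 normalised counts in EloB KD cells and 4118 ± 1020 in EloC KD cells, against 17290 ± 1940 in Control KD cells (adjusted p 0.00726 and 5.95e-05). RCOR1 and HDAC1, members of corepressor complexes, also fell in both knockdowns, RCOR1 by 0.75 and 0.39 and HDAC1 by 0.45 and 0.68 on the log2 scale (adjusted p 0.000293, 0.00377, 0.0237 and 0.00123). ATN1, the other atrophin, moved as RERE did, at -0.68 in EloB KD and 0.51 in EloC KD cells (adjusted p 0.00166 and 0.00309). Of the 18 genes of LUZP1 partners, actin and the primary cilium, none was called in EloB KD cells, where 20.5% of all genes were, and 3 rose and 2 fell in EloC KD cells (27.8%, against 42.5%). With the replicate block 6 and 8 of them were called (33.3% and 44.4%, against 36.3% and 57%). For the WT against the scrambled peptide 1 of the 18 was higher and 1 lower (11.1%, against 1.43% of all genes). LIMA1, an actin-bundling partner of LUZP1, rose in EloC KD cells (log2 1.47 ± 0.16, adjusted p 6.70e-05) and fell with the WT peptide (-0.23 ± 0.05, adjusted p 0.0430). With the mutant peptide LIMA1 was also at -0.23 against the scrambled peptide (adjusted p 0.125, or 0.00178 with the block). CEP97, a suppressor of cilium formation, rose in EloC KD cells (0.42 ± 0.11, adjusted p 0.00888), and RPGRIP1L of the ciliary transition zone fell there (-0.39 ± 0.10, adjusted p 0.00937). KIAA0586, a centriole protein needed for cilia, rose with the WT peptide to 2821 ± 18.9 normalised counts, against 2276 ± 17.1 with the scrambled peptide (adjusted p 0.0146).

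The genes with the most similar profile over the 9 knockdown libraries were found by Pearson correlation with the mean profile of each class, among 12238 genes with a mean of at least 50. The 9 libraries come from the same 3 groups that defined the classes, and the coefficients are a description. Nearest to CTNNBIP1, LZIC, BSDC1 and OSCP1 were TRAF3IP1 (r = 0.994), LMLN (0.993), TGFBR1 (0.993), CEP290 (0.993) and BBOF1 (0.992). TRAF3IP1 and CEP290 encode proteins of the cilium, and TGFBR1 is the type I receptor of TGF-β, with 3795 ± 369 normalised counts in EloB KD cells, 1123 ± 20.4 in EloC KD cells and 2582 ± 91.1 in Control KD cells. Nearest to TIE1, RAB3B, KIAA1522, LUZP1 and RERE were PUDP (0.995), KIRREL1 (0.995), CCND1 (0.993), DNAJB2 (0.991) and CCDC80 (0.991). CCND1, which encodes cyclin D1, averaged 16680 ± 304 in EloB KD cells, 40960 ± 2300 in EloC KD cells and 26340 ± 1230 in Control KD cells. Of these 10 genes KIRREL1 alone is on chromosome 1, and limma without the replicate block called none in a peptide comparison, where their unadjusted p was lowest for CEP290 (0.00884, mutant against scrambled peptide). With the block CEP290 was called for the WT and the mutant against the scrambled peptide (adjusted p 0.0248 and 0.0139), and CCND1 for the mutant (0.00995).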

How the data were processed

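Column-purified, DNase-treated RNA of PC3 cells was sequenced as stranded mRNA libraries, per the protocols in the labels. Reads were assigned to hg38 genes with featureCounts and scaled with DESeq2, per the submitters' processing notes (versions not given in the sources used here). The authors deposited DESeq2-normalised read counts, a signal per gene and library, for 20365 genes. They also deposited adjusted p-values of 4 comparisons, which are not quoted. Here log2(count + 1) was analysed with limma-trend (limma 3.58.1, R 4.3.3), keeping genes that averaged 10 or more across an experiment's 9 libraries (13764 and 13105 genes), all tests 2-sided with a spread shared by the 3 groups. Whole reads were recovered from the smallest step of each library (100% of values within 0.05 reads) for edgeR 4.0.16 and DESeq2 1.42.0; in 2 libraries that step was close to 1, so there the recovery cannot be told from the deposited values. Replicate pairs differed by more than sampling noise (chi-square per degree of freedom 4.89 to 74.9). For same-number libraries the deviations from group means correlated, at 0.236 to 0.566 among knockdown libraries and at 0.254 to 0.715 among peptide libraries, so the numbers pair the samples by this check, and a replicate block was run beside each result. The labels do not say what a number shares. The 9 genes and all lists were chosen with earlier results of these data known. Genes named are the 9, the Elongin subunits, 3 per list with the smallest adjusted p in a knockdown plus any called with a peptide, list members of the opposite class, called neighbours, and the 5 most similar genes per class. GENCODE 29 matched 20219 genes. The method was tested on simulated data with a common dispersion and no effect shared by replicate number, so that test does not bear on the replicate block.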

Additional observations from a re-analysis of the deposited data

How the results depend on the processing

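All 9 genes met the opposite-direction rule under other pseudocounts, filters, TMM or quantile scaling, edgeR, DESeq2 and the replicate block, 6 to 9 did when a library was left out, 4 at an adjusted p under 0.01 and 1 at 2-fold. The call of BSDC1 in EloB KD was lost without any 1 library of those groups and with the 2 groups alone (adjusted p 0.0645); those of CTNNBIP1 and LZIC in EloB KD and OSCP1 in EloC KD were lost without some libraries (log2 0.306 to 0.374, 0.364, and -0.444 to -0.535 there; adjusted p 0.0536 to 0.0967). The 371 genes became 938 with the block, 99 at p under 0.01, 24 at 2-fold, and 198 to 318 without 1 library. Members called were 5 at p under 0.01 and 2 at 2-fold for EloB KD, 3 at 2-fold for EloC KD, and with the block 4, 1 and 1 for WT against scrambled, mutant against scrambled and WT against mutant peptide. Neighbours called were 1 at 2-fold for EloB KD; 16 with the block and 3 at 2-fold for EloC KD; 7 at p under 0.01, 2 at 2-fold and 8 to 12 without 1 library between knockdowns; for WT against scrambled peptide 2 with DESeq2, 7 with the block and 0 at 2-fold; 4 with the block for mutant against scrambled; 2 with DESeq2 and 3 with the block for WT against mutant. Of the genes on the lists drawn from the 9, the block, run on them after seeing the data, called 45 in place of 28 for EloB KD, 20 in place of 2 for WT against scrambled, 12 in place of 0 for mutant against scrambled and 6 in place of 0 for WT against mutant peptide. It changed no other count of the 9 genes. Signs turned only for uncalled peptide values. For WT peptide against scrambled peptide, leaving out 1 library gave log2 values of CTNNBIP1 -0.023 to 0.071, LUZP1 -0.015 to 0.019 and -0.0060 with quantile scaling. For mutant peptide against scrambled peptide, leaving out 1 library gave log2 values of CTNNBIP1 -0.017 to 0.17, LZIC -0.00022 to 0.059, RAB3B -0.013 to 0.14. For WT peptide against mutant peptide, leaving out 1 library gave log2 values of CTNNBIP1 -0.14 to 0.044, KIAA1522 -0.0104 to 0.10, TIE1 -0.19 to 0.17 and 0.067 with number 2 left out of all 3 groups, OSCP1 -0.072 to 0.032 and 0.0083 with quantile scaling, RERE -0.0085 to 0.082, BSDC1 -0.071 to 0.030. The cause of these changes was not tested. The interval of TIE1, the gene with the fewest counts, was the widest.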

Other observations

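The 4 other genes of the opposite class in the same stretch of chromosome 1 were named after their values were seen, and are given as values. EPHB2, an ephrin receptor kinase, averaged 1144 ± 59.9 normalised counts in EloB KD cells, 2300 ± 103 in EloC KD cells and 1448 ± 170 in Control KD cells (SD, n = 3 each). FUCA1, a lysosomal fucosidase, averaged 1898 ± 156, 873.9 ± 51.6 and 1481 ± 106 in the same order. GPN2, a GTPase gene, and IPO13, an importin gene, had smaller differences, at -0.29 and 0.24 for GPN2 and -0.31 and 0.22 for IPO13 in EloB KD and EloC KD (log2).

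Among all 371 genes those with the largest fold changes in both knockdowns were mostly low in count. SBSN averaged 1.88 ± 1.86 normalised counts in EloB KD cells, 43.4 ± 28.4 in EloC KD cells and 10.5 ± 4.61 in Control KD cells. SMIM10L2A was the best measured of the 10 largest, with 1402 ± 417 in EloB KD cells, 238.7 ± 42.4 in EloC KD cells and 584.7 ± 83.3 in Control KD cells. Its similarly named relative SMIM10L2B had 70.2 ± 18.9, 7.23 ± 1.64 and 25.3 ± 8.10, and how reads shared by this pair were counted is not known. TNFAIP6, a secreted hyaluronan-binding protein, had 70.9 ± 22.5, 665.6 ± 140 and 164.1 ± 21.7. In the peptide experiment limma called 1 of the 366 measured genes of the opposite class for the WT against the scrambled peptide (0.273%, against 1.43% of all genes), which was lower. With the replicate block it called 70 (19.1%, against 16.2%).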
